A study of Mus musculus with 26 samples.

Results

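Genes of DNA replication and nucleotide supply were followed in S49 lymphoma cells during exposure to an analog of cyclic AMP (cAMP). The set is a fixed list of 54 named genes that license and fire replication origins, copy DNA, join and package the new strands, or make the deoxynucleotides used for copying. Of these, 51 had a probe set assigned to that gene symbol alone and were measured, among 12393 genes measured in all. Gins2, Rnaseh2a and Chaf1a, the other members on the list, were not analysed here. Where a gene had several probe sets, the one with the highest mean over all arrays stood for it.

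S49 is a mouse T-lymphoma line. Its variant Kin- is known for having no active protein kinase A (PKA), through which most effects of cAMP run in these cells. Total RNA of both the wild type (WT) and Kin- was hybridised to 26 arrays of 22626 probe sets: each line had 4 arrays without analog (0 h) and 3 arrays each after 2, 6 and 24 h with 8-CPT-cAMP, which enters cells, at 100 µM. The labels put all untreated arrays at 0 h and name 1 Kin- line, so the loss of PKA activity and any other trait of that line cannot be told apart. They name no separate cultures behind the arrays of a group, so each p-value reflects only how far these arrays differ, which may be a technical spread, and precision is limited by how few there are.

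Before a cell copies its DNA, the origin recognition complex with Cdc6 and Cdt1 loads the Mcm2-7 helicase on origins, and the kinase Cdc7 with Dbf4, together with Mcm10, Cdc45 and the GINS complex, turns the loaded helicase into moving forks. At the fork, primase and polymerase alpha lay primers, polymerases delta and epsilon extend them on the Pcna clamp, and ribonucleotide reductase, thymidylate synthase and thymidine kinase supply the building blocks. Transcription of many of these genes is known to peak around the start of S phase under E2F factors, and cAMP is known to arrest wild-type S49 cells in G1 and later to kill them.

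The deposited values carry no stated scale. Their square roots, from 0.612 to 16.4, were read as log2 intensities, which is an assumption, and every level and change below is in these log2 units. Levels of different members are not compared with each other. The cells expressed T-lymphoid markers. By the mean over all arrays of both lines, the 6 measured of 7 (such as Thy1, Cd3e and Zap70) lay between the 88.2 and 97.3 percentiles of all probe sets. By the same mean, B-cell, erythroid and fibroblast markers lay below the median. The summed level of the T-lymphoid markers was 72.7 to 74.8 in WT arrays at 24 h against 69.3 to 71.4 at 0 h, and that of 5 myeloid markers was 23.2 to 25.5 against 22.3 to 22.7. Within the lists, Thy1 fell at 24 h (−0.77, adjusted p = 0.00254) while the other 5 T-lymphoid markers rose (0.76 to 1.10), and of the myeloid markers Itgam alone rose (2.11, adjusted p = 1.64e-06). The summed level of 5 fibroblast markers in WT was 15.4 to 15.9 at 0 h, 18.3 to 18.9 at 6 h and 16.8 to 17.1 at 24 h, with none passing at 24 h. In untreated Kin- arrays that sum was 17.2 to 21, and the fibroblast marker Pdgfrb averaged 6.50 there against 3.38 in untreated WT. The part of these markers in the results was not tested. Crem, a gene that PKA signalling induces, rose by 6.07 ± 0.36 (SE) at 2 h in WT (adjusted p = 2.49e-10, limma) and stood at 0.05 ± 0.36 in Kin- (adjusted p = 1), as the labels of the lines imply. Once group means were removed, a first principal component that held 35.5% of what remained split the 10 arrays numbered 1 to 14 from the 16 numbered 16 to 47. Each group held arrays of both sets, and results that differ between the sets are given for each.

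In WT cells the replication genes had fallen almost as a whole after 24 h. Of 51 members, 49 were lower than at 0 h and none was higher, where "lower" and "higher" mean a limma adjusted p (Benjamini-Hochberg over all probe sets) under 0.05. Over all 12393 genes, 16.3% were lower and 16.3% higher in that comparison. The members' median change was −1.81, with a range from −3.22 (Ung) to 0.31 (Dbf4), while the median over all genes was −0.01. Each of the 3 WT arrays at 24 h lay below each of the 4 arrays at 0 h in 47 members, against 16.8% of all genes. The 4 exceptions were Orc4, Dbf4, Lig1 and Dut. In such bulk RNA, fewer cells in S phase and less of each messenger per cell cannot be told apart.

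**Figure D1:**
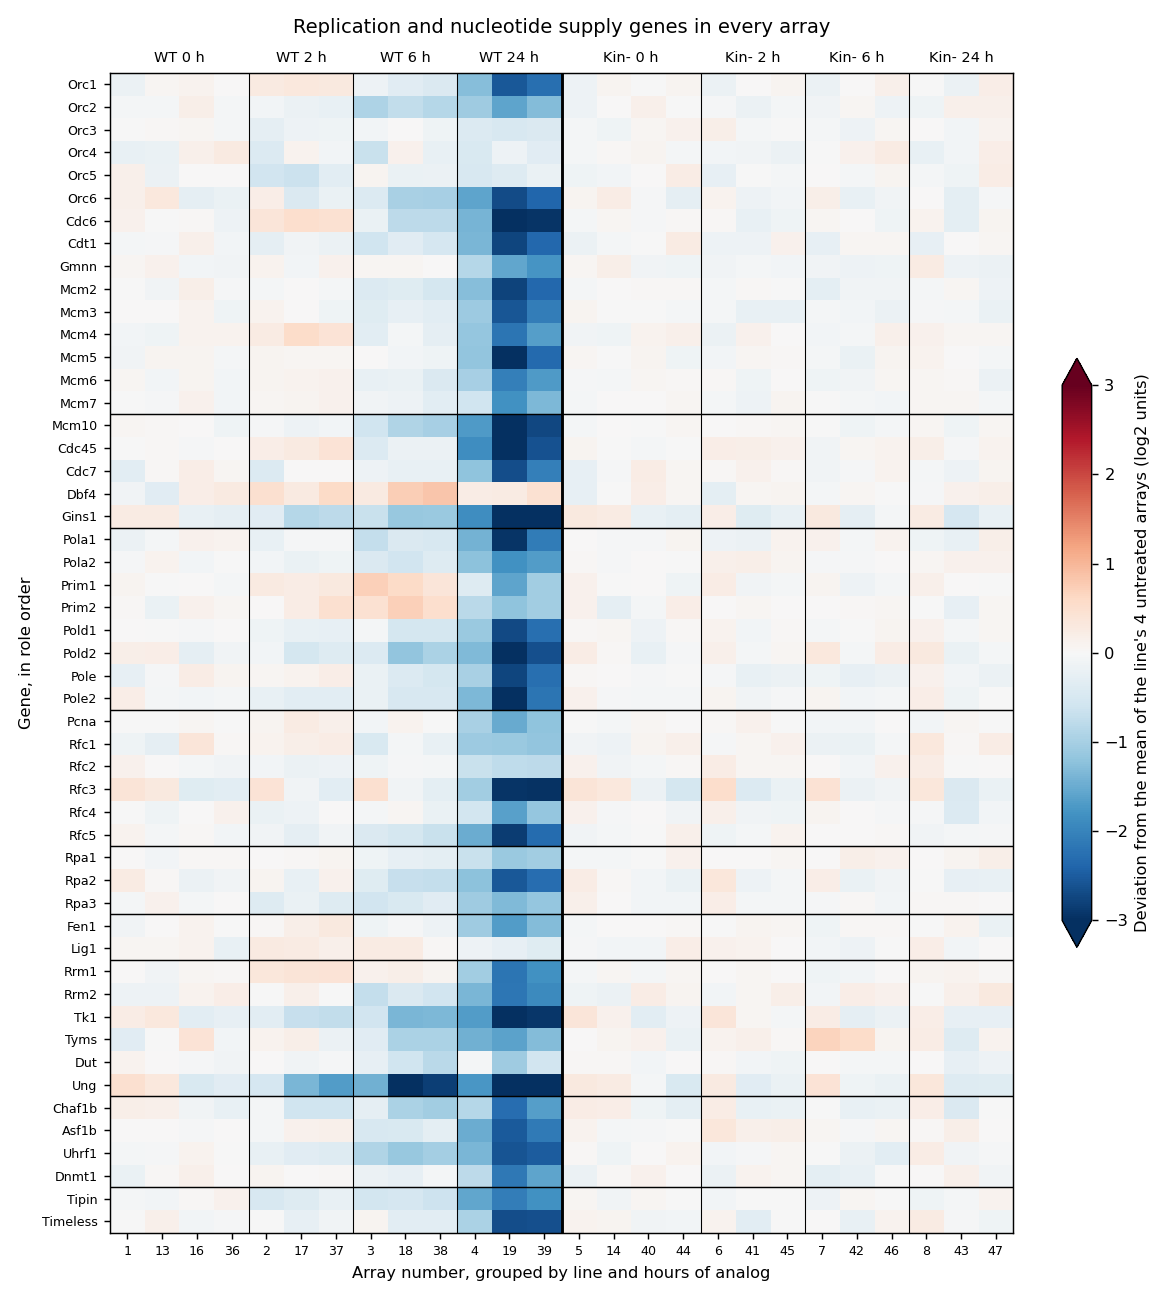
Level of each of the 51 members (rows, in order of role) in each of the 26 arrays (columns, by array number), as the deviation in log2 units from the mean of the 4 untreated arrays of the same line; blue is lower and red higher, and the colour scale ends at 3 units. The 3 WT columns at 24 h are blue in nearly every row, array 4 less so than arrays 19 and 39, and the Kin- columns stay near 0.

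The fall came late. At 2 h, 3 members were lower and 1 was higher (8.44% and 7.25% of all genes), with a member median of −0.04 beside 0.05 for all genes. At 6 h, 17 were lower and 3 higher (11.1% and 11% of all genes), with a median of −0.31 beside −0.03. From 6 to 24 h, 46 members fell further and none rose (9.84% and 9.85% of all genes), with a median of −1.43. The comparisons with 0 h share the same untreated arrays. In 43 members the level ran down from 2 to 6 to 24 h, and in 50 it was lowest at 24 h among the treated times. The shares of all genes with these courses were not computed. Of all 12393 genes, 8239 had a change below 0 from 2 to 6 h and 4806 from 6 to 24 h. For the 49 members lower at 24 h, the median share of that fall already present at 6 h was 20.1%. Leaving out each of the 26 arrays in turn, 11 of the 20 members that passed at 6 h passed every time, and 9 lost the call in some fits: Orc6, Gins1, Pold2, Prim1, Rfc5, Dut, Tk1, Chaf1b and Asf1b. The counts at the early times depended on single arrays: the 20 members that passed at 6 h became 11 without WT array 18 at 6 h, 12 without array 38 at 6 h and 32 without WT array 4 at 24 h. The 4 that passed at 2 h became 2 without WT array 2 at 2 h and 9 without array 4. Array 4 is in neither of these comparisons. An array of another group enters a comparison only through the spread, which the fit shares over all groups.

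**Figure D2:**
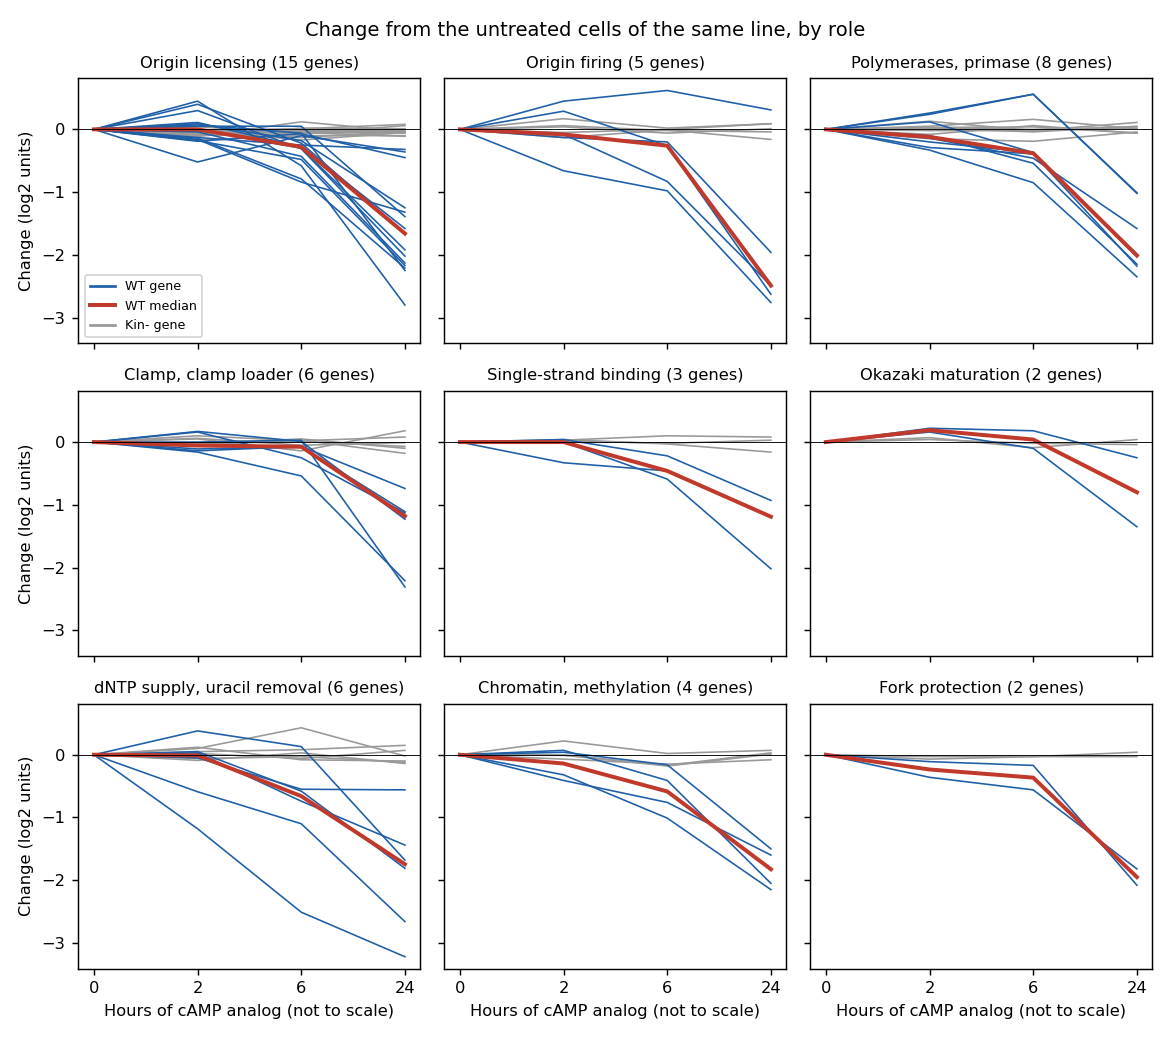
Change from the untreated arrays of the same line (log2 units, vertical) at 0, 2, 6 and 24 h (horizontal, spaced evenly), with 1 panel for each of 9 roles; blue lines are members in WT, the red line their median, and grey lines the same members in Kin-. WT lines stay close to 0 until 6 h in most panels and drop by 24 h, the supply panel shows several lines down by 6 h, and Kin- lines lie flat.

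The 24 h arrays did not fall by the same amount. The median deviation of the members from the WT untreated mean was −1.10 in array 4, −2.18 in array 19 and −1.82 in array 39, so array 4, the only 24 h WT array numbered 1 to 14, had moved least. Within arrays 1 to 14 the median member change at 24 h was −1.10 (1 array against 2), and within arrays 16 to 47 it was −2.05 (2 against 2). In 49 of 51 members the change was lower in the second set, including Dbf4, which rose less there. At 6 h the medians were −0.26 and −0.37. In both sets 50 of 51 members were below their untreated level at 24 h, with Dbf4 above it in both. Without array 4, the median over members at 24 h was −2.0. The labels do not say what separates the sets.

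**Figure D3:**
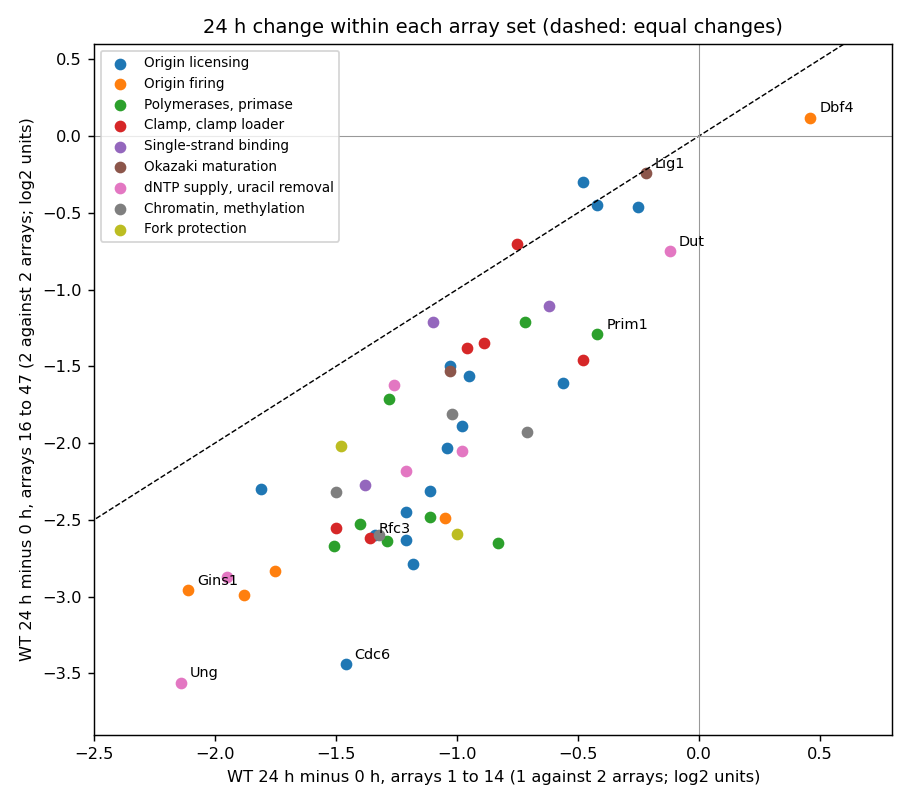
WT change at 24 h against 0 h (log2 units) for the 51 members within arrays 1 to 14 (horizontal) and within arrays 16 to 47 (vertical), coloured by role; the dashed line marks equal changes. Of the points, 49 lie below the dashed line, Gins1, Ung and Cdc6 among the lowest, and Dbf4 is above 0 on both axes.

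To see what the promoters of these genes share, RefSeq promoter sequences (GRCm38.p6, from 250 bases before each start to 50 after) were searched on both strands for 4 spellings of an E2F-type motif, TTTCCCGC, TTTGGCGC, TTTCGCGC and TTTGCCGC, which can overlap each other on opposite strands. A promoter was found for 44 of the 51 measured members; Pole, Mcm4, Gmnn, Gins1, Rfc2, Prim2 and Tipin had none in the table used. A match was present in 15 of 44 members (34.1%), against 4.07% of the 9887 array genes with a promoter and 2.26% of all 32851 promoters. By role, 8 of 13 licensing genes, 3 of 6 polymerase and primase genes, 2 of 4 chromatin genes, 1 of 5 clamp genes and 1 of 2 Okazaki genes held a match, while none of 6 supply genes, 4 firing genes, 3 single-strand binding genes and 1 fork gene did. Of the 10 members with a match in the 250 bases before the start, the 6 with the largest 24 h falls are shown. The others, Mcm6, Dnmt1, Mcm7 and Orc3, changed by −1.58, −1.5, −1.25 and −0.45. Below are 80 bases around the match (capitals) for these 6 members from 4 roles, each 5′ to 3′ on the gene's own strand. They stand at chr11:98907977-98908056 (+) for Cdc6, chr8:75109322-75109401 (+) for Mcm5, chr4:108579374-108579453 (+) for Orc1, chrX:93632250-93632329 (−) for Pola1, chr5:151651209-151651288 (−) for Rfc3 and chr17:56304092-56304171 (+) for Uhrf1.
Cdc6: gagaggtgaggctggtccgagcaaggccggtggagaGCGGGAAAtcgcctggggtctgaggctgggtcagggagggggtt
Mcm5: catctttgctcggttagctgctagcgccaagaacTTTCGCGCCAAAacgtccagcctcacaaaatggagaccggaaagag
Orc1: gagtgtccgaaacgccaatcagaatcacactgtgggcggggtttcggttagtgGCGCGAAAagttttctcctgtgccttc
Pola1: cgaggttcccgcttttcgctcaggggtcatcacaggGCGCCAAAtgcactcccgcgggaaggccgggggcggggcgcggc
Rfc3: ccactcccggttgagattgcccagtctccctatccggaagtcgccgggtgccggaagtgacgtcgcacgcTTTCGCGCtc
Uhrf1: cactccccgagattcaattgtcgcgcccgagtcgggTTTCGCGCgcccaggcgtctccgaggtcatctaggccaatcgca
In Mcm5 the capitals hold 2 overlapping matches on opposite strands, and in Rfc3 the match begins 10 bases before the start.
For comparison, these are the 80 bases before the start of Tk1, at chr11:117826015-117826094 (−), and of Ung, at chr5:114130355-114130434 (+), which fell early and hold none of the 4 spellings in the whole window.
Tk1: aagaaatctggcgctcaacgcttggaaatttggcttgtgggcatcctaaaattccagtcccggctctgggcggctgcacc
Ung: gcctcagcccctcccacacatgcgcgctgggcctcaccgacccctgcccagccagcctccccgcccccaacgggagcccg
The median WT change at 24 h was −2.03 over the 15 members with a match and −1.60 over the 29 without, and at 6 h it was −0.30 and −0.43. These are descriptions of letters in a window, and the lack of a match says only that these letters are not in it.

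Licensing genes made up the largest group, with 14 of 15 lower at 24 h, a median of −1.66 at that time and −0.28 at 6 h. Cdc6, which brings the helicase to the origin complex, fell the most of them. Its level was 11.67, 11.53, 11.56 and 11.38 in the WT arrays at 0 h, 11.90, 12.04 and 12.00 at 2 h, 11.34, 10.76 and 10.75 at 6 h, and 10.14, 7.47 and 8.59 at 24 h. Every 2 h array was above every 0 h array and every 6 h and 24 h array below them, yet only the 24 h change passed (−2.80 ± 0.34 SE, adjusted p = 1.22e-06; at 2 h 0.45, adjusted p = 0.458; at 6 h −0.58, adjusted p = 0.318). The 13 Kin- arrays ranged from 11.23 to 11.63 for Cdc6.

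All 6 subunits of the Mcm2-7 helicase were lower at 24 h, from −1.25 ± 0.16 for Mcm7 to −2.25 ± 0.25 for Mcm5 (adjusted p from 2.4e-06 to 2.81e-08 across the 6, with n = 3 against 4 arrays in the limma fit). Mcm5 stood at 12.03 to 12.22 in the untreated arrays, at 12.15, 12.05 and 12.01 at 6 h, and at 10.94, 8.92 and 9.79 at 24 h. Its 6 h arrays lay within or next to the untreated range and its 24 h arrays well below it. None of the 6 subunits passed at 2 or 6 h against 0 h. Cdt1, the helicase loader, fell by 2.17 ± 0.20 at 24 h, and its inhibitor geminin (Gmnn) by 1.39 ± 0.14.

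The 6 genes of the origin recognition complex, which marks origins, split into a group that fell far and a group that hardly moved. Orc6 fell by 2.21 ± 0.22 at 24 h, and Orc1, whose level is known to follow the cell cycle, fell by 2.02 ± 0.19. Orc2 had an earlier course: its 4 untreated arrays read 9.76 to 10.01, its 6 h arrays 8.90, 9.08 and 8.98, and its 24 h arrays 8.75, 8.24 and 8.53. The 6 h arrays were already separate from the untreated ones (−0.84 ± 0.10, adjusted p = 3.45e-06), which is 63.9% of the change at 24 h (−1.32 ± 0.10), and both other probe sets of Orc2 were lower at 24 h too.

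Orc3, Orc4 and Orc5 changed by less than 0.5 at 24 h. Orc3 was lower by −0.45 ± 0.07 (adjusted p = 2.99e-05), while Orc4 did not pass (−0.32 ± 0.16, adjusted p = 0.149). The other, dimmer probe sets of Orc3 did not pass (−0.19, adjusted p = 0.445, and −0.15, adjusted p = 0.676). Orc4 read 9.39, 9.41, 9.76 and 9.88 at 0 h and 9.15, 9.45 and 9.27 at 24 h, so its groups overlap, and it did pass with a term for the array set (−0.36, adjusted p = 0.0178). Of its other probe sets, one did not pass (−0.06, adjusted p = 0.96) and the dimmest did (−0.41, adjusted p = 0.0311). Orc5 was among the few members lower at 2 h: it read 9.06, 8.74, 8.94 and 8.93 at 0 h, 8.35, 8.27 and 8.59 at 2 h, 9.0, 8.72 and 8.75 at 6 h, and 8.43, 8.54 and 8.72 at 24 h. Thus it was low at 2 h (−0.52 ± 0.11, adjusted p = 0.0018), back among the untreated values at 6 h (0.42 ± 0.12 above 2 h, adjusted p = 0.0192), and slightly low again at 24 h (−0.36 ± 0.11, adjusted p = 0.0143; 0.113 in arrays 16 to 47 alone).

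The firing genes held 4 members that fell far and Dbf4, which did not fall. Mcm10, Cdc45, Cdc7 and Gins1 were lower at 24 h, and the median over the 5 genes was −2.49. Gins1, a subunit of the GINS complex, read 10.28, 10.30, 9.81 and 9.78 at 0 h, 9.71, 9.19 and 9.26 at 2 h, 9.37, 8.91 and 8.92 at 6 h, and 8.18, 6.61 and 7.06 at 24 h. Each group of treated arrays was below all untreated arrays, by −0.66 at 2 h (adjusted p = 0.149), −0.98 ± 0.29 at 6 h (adjusted p = 0.0173) and −2.76 ± 0.29 at 24 h (adjusted p = 1.29e-07). Cdc45, the helicase co-factor, had its 4 untreated arrays between 9.66 and 9.72 and read 7.82, 6.29 and 7.08 at 24 h (−2.63 ± 0.20, adjusted p = 1.41e-09), with 9.28, 9.50 and 9.51 at 6 h (−0.26, adjusted p = 0.485).

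Dbf4 encodes the regulatory subunit that activates the kinase Cdc7. It rose: its arrays read 10.79, 10.56, 11.10 and 11.17 at 0 h, 11.38, 11.18 and 11.48 at 2 h, 11.18, 11.64 and 11.74 at 6 h, and 11.13, 11.15 and 11.36 at 24 h. All arrays at 2 and 6 h were above all untreated ones (0.45 ± 0.15, adjusted p = 0.0459, and 0.62 ± 0.15, adjusted p = 0.00373), and at 24 h the groups overlapped (0.31 ± 0.15, adjusted p = 0.132, and 0.0167 with array weights). Its partner Cdc7 did not pass at 2 or 6 h and fell by 1.96 ± 0.21 at 24 h. The call for Dbf4 at 2 h is near the threshold and was lost in 16 of the 26 fits that leave out 1 array. Adjusted p was 0.112 without WT array 1 at 0 h and up to 0.2, without WT array 37 at 2 h. It was also lost with log2 of the deposited value (0.0726), quantile normalization (0.0647), array weights (0.0837) and arrays 16 to 47 alone (0.183). The difference between the WT and Kin- responses of Dbf4 at 6 h was 0.62 ± 0.21 (adjusted p = 0.0608). A second, dim probe set of Dbf4, with an untreated WT level of 2.58, did not pass (−0.05 at 6 h and −0.02 at 24 h).

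All 8 polymerase and primase genes were lower at 24 h, with a median of −2.01. Pold2, a subunit of polymerase delta, read 10.41, 10.44, 9.96 and 10.12 at 0 h, 10.15, 9.70 and 9.85 at 2 h, 9.82, 9.06 and 9.28 at 6 h, and 8.91, 7.14 and 7.59 at 24 h. The arrays at 6 and 24 h lay below all untreated arrays (−0.85 ± 0.28, adjusted p = 0.0326, and −2.35 ± 0.28, adjusted p = 6.64e-07). The catalytic subunits Pold1, Pole and Pola1 changed by −2.03 ± 0.22, −1.99 ± 0.24 and −2.15 ± 0.21 at 24 h, and none of them passed at 6 h.

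The subunits of primase, which makes the RNA primers, first rose and then fell. Prim1 read 11.92, 11.84, 11.85 and 11.78 at 0 h, 12.57, 12.42 and 12.22 at 6 h, and 11.46, 10.26 and 10.80 at 24 h. Prim2 read 10.83, 10.60, 10.93 and 10.85 at 0 h, 11.26, 11.52 and 11.30 at 6 h, and 10, 9.59 and 9.76 at 24 h. In both, all 6 h arrays were above and all 24 h arrays below the untreated ones. The rises at 6 h were 0.56 ± 0.17 for Prim1 (adjusted p = 0.0205) and 0.56 ± 0.12 for Prim2 (adjusted p = 0.00213), and the falls at 24 h were −1.01 ± 0.17 (adjusted p = 5.12e-05) and −1.02 ± 0.12 (adjusted p = 1.07e-06). The second probe set of Prim1 read 0.51 at 6 h (adjusted p = 0.0569) and that of Prim2 0.15 (adjusted p = 0.791), and the difference between the WT and Kin- responses at 6 h did not pass (0.59 ± 0.24, adjusted p = 0.134, for Prim1 and 0.52 ± 0.17, adjusted p = 0.0637, for Prim2).

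The clamp and most of the clamp loader had changed little by 6 h. Over Pcna, the sliding clamp, and the 5 genes of replication factor C, which loads it, the median change was −0.07 at 6 h and −1.18 at 24 h, when all 6 were lower. Pcna read 14.09 to 14.18 at 0 h, 14.02, 14.22 and 14.11 at 6 h, and 13.13, 12.60 and 12.91 at 24 h, so it lay on the untreated values at 6 h (0.01, adjusted p = 0.969) and clear of them at 24 h (−1.23 ± 0.08, adjusted p = 4.11e-10). Rfc3 went from 10.50, 10.41, 9.77 and 9.82 at 0 h to 10.61, 10.02 and 9.83 at 6 h and 9.09, 7.18 and 7.16 at 24 h, where the change was −2.31 ± 0.39 (adjusted p = 5.66e-05). Its array of the first set stayed well above the others at 24 h, and its untreated arrays differed by set as well. Rfc2 fell least in this group but evenly, with 10.88, 10.77, 10.69 and 10.65 at 0 h and 10.07, 9.98 and 9.97 at 24 h (−0.74 ± 0.07, adjusted p = 5.5e-08). Rfc5 passed at 6 h (−0.54 ± 0.18, adjusted p = 0.0413), but not without any one of the 7 WT arrays at 0 and 6 h (adjusted p up to 0.158, without array 38) nor with log2 of the deposited value (adjusted p = 0.114). No other loader gene passed then on the probe set that stood for it, while another probe set of Rfc1 was lower (−0.46, adjusted p = 0.00121).

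The 3 subunits of replication protein A, which coats single-stranded DNA, were all lower at 24 h. Rpa2 read 10.74, 10.53, 10.32 and 10.39 at 0 h, 10.13, 9.80 and 9.79 at 6 h, and 9.26, 7.95 and 8.22 at 24 h. Its 6 h arrays were below all untreated ones without passing (−0.59 ± 0.21, adjusted p = 0.059), and the 24 h change was −2.02 ± 0.21 (adjusted p = 1.66e-07). Rpa1, the large subunit, read 12.93, 12.84, 12.95 and 12.95 at 0 h and 12.26, 11.81 and 11.88 at 24 h (−0.93 ± 0.08, adjusted p = 1.78e-08). Rpa3 was lower at each time, with 11.91, 12.10, 11.91 and 11.98 at 0 h, 11.59, 11.77 and 11.59 at 2 h, 11.39, 11.51 and 11.64 at 6 h, and 10.90, 10.66 and 10.81 at 24 h. No treated array of Rpa3 overlapped the untreated ones, and its changes were −0.33 ± 0.08 (adjusted p = 0.00715), −0.46 ± 0.08 (adjusted p = 0.000215) and −1.19 ± 0.08 (adjusted p = 3.98e-10).

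The Okazaki genes differed. Fen1, the flap nuclease that trims lagging-strand fragments, read 11.22, 11.34, 11.43 and 11.31 at 0 h, 11.19, 11.30 and 11.18 at 6 h, and 10.25, 9.66 and 10.02 at 24 h (−1.35 ± 0.10, adjusted p = 1.56e-09). Lig1, the ligase that seals the fragments, read 11.24, 11.23, 11.27 and 10.96 at 0 h, 11.44, 11.41 and 11.32 at 2 h, 11.42, 11.41 and 11.22 at 6 h, and 11.02, 10.94 and 10.81 at 24 h. Its groups overlap at 24 h through the untreated array at 10.96, and its change of −0.25 ± 0.09 (adjusted p = 0.0362) was the smallest that passed. That call was lost in arrays 16 to 47 alone (−0.24, adjusted p = 0.212), after quantile normalization (−0.15, adjusted p = 0.243) and with log2 of the deposited value (adjusted p = 0.0922). It was also lost in 5 of the 26 fits that leave out 1 array. Adjusted p was 0.0913 without WT array 1 at 0 h and up to 0.186, without WT array 39 at 24 h.

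Genes of deoxynucleotide supply and uracil removal had the lowest median of all 9 roles at 6 h, −0.66, with 5 of 6 lower, beside −0.28 for licensing, −0.38 for polymerases and primase and −0.07 for clamp and loader. At 24 h their median was −1.74, so the median share of the 24 h fall already present at 6 h was 46.4%, compared with 17% for licensing, 18.5% for polymerases and primase and 8.25% for clamp and loader. The 6 h medians rest on 6, 15, 8 and 6 genes and the shares on 6, 14, 8 and 6, and they were not tested against each other. Within arrays 1 to 14 the 6 h medians were −0.43, −0.21, −0.16 and −0.13 in the same order, and within arrays 16 to 47 they were −0.87, −0.27, −0.48 and −0.06. Supply was not the lowest role within arrays 1 to 14, where single-strand binding stood at −0.50 and chromatin at −0.46.

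Ung, the glycosylase that removes uracil from DNA, showed the largest change of all members at each time. It read 10.42, 10.25, 9.47 and 9.60 at 0 h, 9.44, 8.57 and 8.27 at 2 h, 8.50, 6.68 and 7.10 at 6 h, and 8.20, 5.78 and 6.18 at 24 h. The treated arrays lay below all untreated ones at each time, though by little in 1 of the 2 h arrays, and array sets differed by over 1 unit at 24 h. The changes were −1.18 ± 0.47 at 2 h (adjusted p = 0.116), −2.51 ± 0.47 at 6 h (adjusted p = 0.000475) and −3.22 ± 0.47 at 24 h (adjusted p = 1.27e-05), so 78.1% of the 24 h change was present at 6 h. In the order of all 12393 genes from the lowest 24 h change upward, Ung stood at place 9.

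Thymidine kinase (Tk1), which salvages thymidine, read 10.45, 10.54, 9.91 and 9.98 at 0 h, 9.91, 9.52 and 9.47 at 2 h, 9.64, 8.86 and 8.88 at 6 h, and 8.54, 6.84 and 7.31 at 24 h. From 6 h on its arrays were separate from the untreated ones, with −1.10 ± 0.30 at 6 h (adjusted p = 0.0103) and −2.66 ± 0.30 at 24 h (adjusted p = 3.6e-07). Thymidylate synthase (Tyms), which makes thymidylate anew, was also lower at 6 h (−0.74 ± 0.18, adjusted p = 0.00456) and at 24 h (−1.44 ± 0.18, adjusted p = 1.61e-06). Its other probe sets, with untreated WT levels of 3.04 and 2.45, did not pass (0.03 and 0.04 at 24 h).

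The 2 subunits of ribonucleotide reductase, which turns ribonucleotides into deoxyribonucleotides, took different courses at 6 h. Rrm1, the large subunit, read 11.75 to 11.92 at 0 h, 12.20, 12.25 and 12.26 at 2 h, 11.98, 12.03 and 11.94 at 6 h, and 10.82, 9.67 and 10.05 at 24 h. All its arrays at 2 and 6 h were above the untreated ones without passing (0.38, adjusted p = 0.108, and 0.13, adjusted p = 0.739), and the fall at 24 h was −1.68 ± 0.15 (adjusted p = 1.7e-08). Rrm2, the small subunit, read 12.90, 12.88, 13.14 and 13.25 at 0 h, 12.32, 12.62 and 12.46 at 6 h, and 11.68, 10.88 and 11.14 at 24 h, with −0.58 ± 0.15 at 6 h (adjusted p = 0.00668) and −1.81 ± 0.15 at 24 h (adjusted p = 4.54e-09). The difference between the courses of the 2 subunits was not tested.

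Dut, the enzyme that breaks down dUTP, had about the same mean change at 6 and 24 h, though its 24 h arrays lay far apart. It read 13.16, 13.06, 13.01 and 12.95 at 0 h, 12.81, 12.44 and 12.23 at 6 h, and 12.99, 11.99 and 12.46 at 24 h. The 6 h arrays were all below the untreated ones, and array 4 at 24 h was back among them. The changes were −0.55 ± 0.15 (adjusted p = 0.0115) and −0.56 ± 0.15 (adjusted p = 0.0061), and the level at 24 h minus that at 6 h did not pass (−0.01 ± 0.16, 95% interval −0.35 to 0.33). Its second probe set gave −1.81 at 6 h (adjusted p = 3.76e-05) and −1.11 at 24 h (adjusted p = 0.00251).

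**Figure D4:**
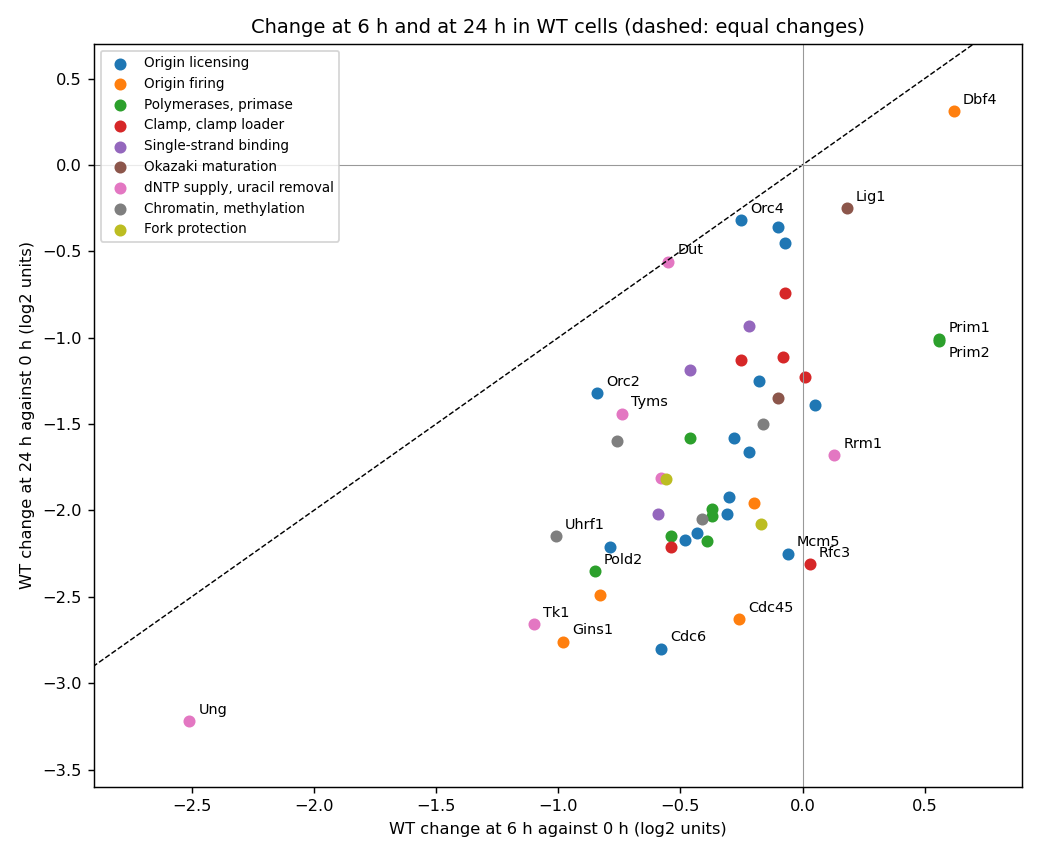
WT change at 6 h (horizontal) and at 24 h (vertical) against 0 h in log2 units for the 51 members, coloured by role; points on the dashed line changed equally at both times. Most points crowd near 0 at 6 h and between −1 and −3 at 24 h. Points nearer the dashed line include Dut, Orc4, Lig1, Orc2 and Ung. Prim1, Prim2 and Dbf4 lie farthest to the right, and Dbf4 is the only point above 0 at 24 h.

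The chromatin genes were also lower early, with 3 of 4 passing at 6 h. Uhrf1, which reads hemimethylated DNA and guides maintenance methylation, read 12.10 to 12.28 at 0 h, 11.94, 11.82 and 11.77 at 2 h, 11.27, 11.03 and 11.15 at 6 h, and 10.79, 9.57 and 9.68 at 24 h. Its arrays went down without overlap from each time to the next, with −1.01 ± 0.18 at 6 h (adjusted p = 0.000323) and −2.15 ± 0.18 at 24 h (adjusted p = 9.56e-09). The histone chaperones Chaf1b and Asf1b were lower at 6 h (−0.76 ± 0.26, adjusted p = 0.0415, and −0.41 ± 0.14, adjusted p = 0.0439) and at 24 h (−1.60 ± 0.26 and −2.05 ± 0.14). Their 6 h calls were near the threshold: that of Asf1b was lost in 20 of the 26 fits that leave out 1 array (adjusted p up to 0.138, without WT array 18 at 6 h), and that of Chaf1b in 5 (up to 0.197, without WT array 38 at 6 h, and also without WT arrays 1, 13, 16 or 18). Both were lost with log2 of the deposited value (adjusted p = 0.122 and 0.0631), while Uhrf1 passed whichever array was left out. Dnmt1, the maintenance methyltransferase that Uhrf1 recruits, read 11.60, 11.84, 11.94 and 11.80 at 0 h, 11.62, 11.56 and 11.74 at 6 h, and 11, 9.66 and 10.22 at 24 h, with overlap at 6 h (−0.16, adjusted p = 0.746) and none at 24 h (−1.50 ± 0.19, adjusted p = 1.39e-06).

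Timeless and Tipin encode partners that steady the fork. Tipin read 12.47, 12.45, 12.57 and 12.67 at 0 h, 12.06, 12.15 and 12.32 at 2 h, 11.99, 12.03 and 11.93 at 6 h, and 10.98, 10.47 and 10.72 at 24 h, so no treated array reached the untreated range. It was lower at 2 h (−0.36 ± 0.09, adjusted p = 0.0101), 6 h (−0.56 ± 0.09, adjusted p = 0.000144) and 24 h (−1.82 ± 0.09, adjusted p = 8.06e-12). Timeless read 10.48, 10.64, 10.41 and 10.46 at 0 h, 10.59, 10.19 and 10.18 at 6 h, and 9.55, 7.83 and 7.85 at 24 h, with overlap at 6 h (−0.17, adjusted p = 0.8) and a fall of −2.08 ± 0.27 at 24 h (adjusted p = 2e-06).

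**Figure D5:**
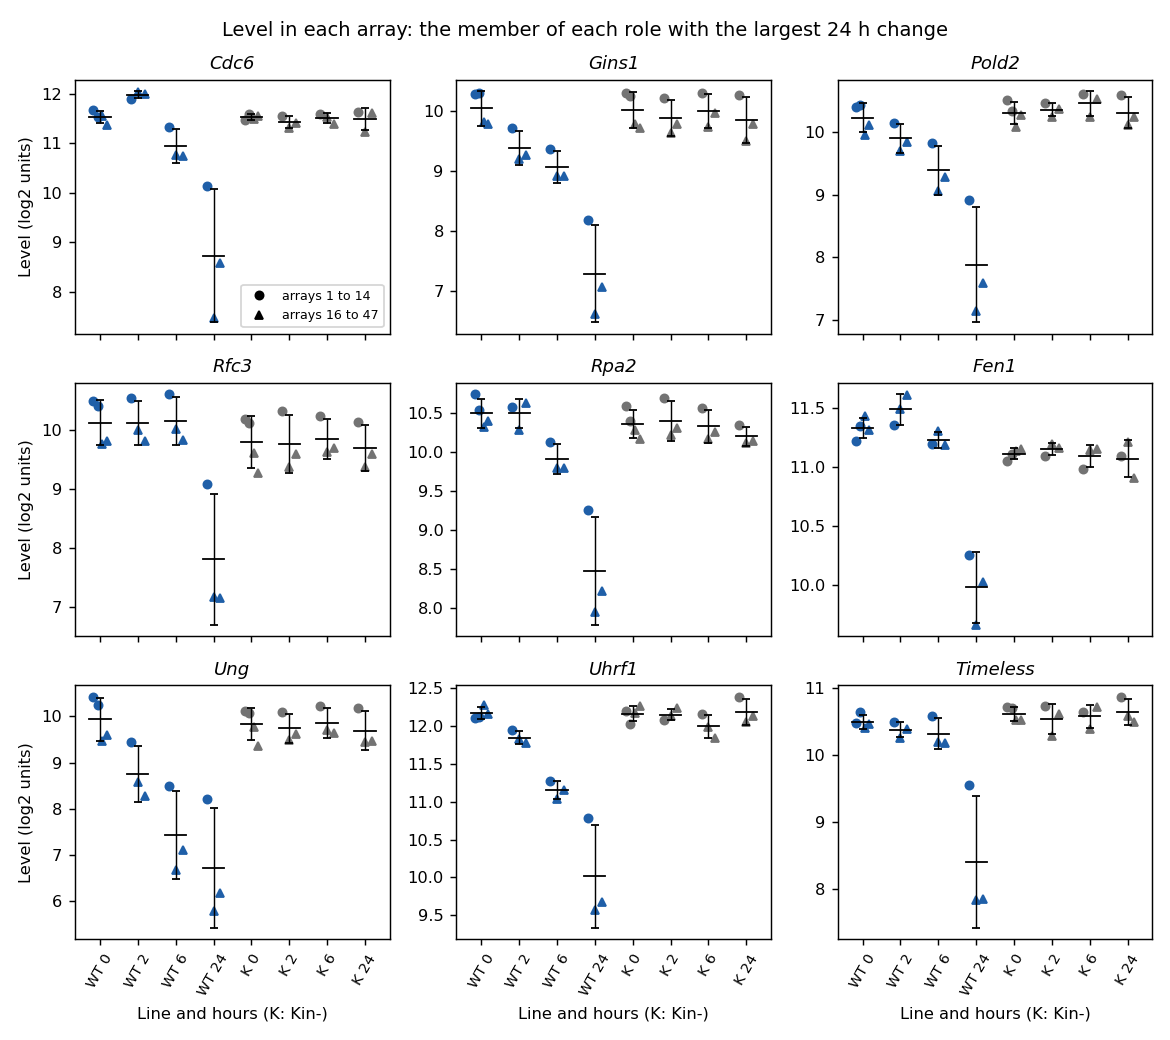
Level in each array (log2 units, vertical; each panel has its own range) for the member of each of the 9 roles with the largest 24 h change, by line and hours of analog; circles are arrays 1 to 14, triangles arrays 16 to 47, and bars the mean and SD of a group. In all 9 panels the WT arrays at 24 h lie below every Kin- array, and the circle lies above both triangles.

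In Kin- cells none of the 51 members passed at 2, 6 or 24 h, and neither did any of the 12393 genes (0% lower and 0% higher at each time). The members' median changes were −0.01, −0.02 and 0.00, with ranges of −0.17 to 0.22, −0.19 to 0.43 and −0.18 to 0.18. At an unadjusted p under 0.05, limma called 0, 1 (Tyms, at 6 h) and 0 members, and 489, 429 and 491 of all probe sets. The 95% intervals of the change at 24 h lay within 0.5 units of 0 for 37 of the 51 members; the widest, for Ung, ran from −1.13 to 0.85. The 3 WT arrays at 24 h were below all 13 Kin- arrays in 47 of 51 members, against 15.1% of all genes.

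The response itself was compared between the lines with an interaction term in the limma fit. The WT response was lower than the Kin- response in 46 of 51 members at 24 h (12% of all genes were lower and 11.7% higher), with a median difference of −1.79. The 5 members that did not pass were Orc4, Orc5, Dbf4, Lig1 and Dut. At 6 h, 8 members passed, all lower (6.54% of all genes were lower and 5.91% higher): Orc2, Pola2, Rpa3, Rrm2, Tyms, Ung, Uhrf1 and Tipin. Their differences ran from −0.44 ± 0.13 for Pola2 (adjusted p = 0.0248) to −2.54 ± 0.67 for Ung (adjusted p = 0.0158). At 2 h none passed (4.02% of all genes were lower and 3.7% higher). At an unadjusted p under 0.05, limma called 7 members and 2299 of all 12393 genes. The count of 8 at 6 h became 5 without WT array 18 at 6 h, 13 without WT array 19 and 18 without WT array 4 at 24 h. Members higher in WT also passed in some alternatives: 14 were lower and 3 higher with a term for the array set, 17 and 1 in arrays 16 to 47 alone, 20 and 4 with array weights, and 6 and 2 after quantile normalization.

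Before treatment 1 of the 51 members passed in the comparison of the lines. At an unadjusted p under 0.05, limma called 9 members and 1531 of all 12393 genes. Rpa3 was higher in untreated Kin- cells, by 0.33 ± 0.07 (adjusted p = 0.015), and no other member passed (1.74% of all genes were higher and 1.73% lower). Without WT array 1 or array 16 at 0 h Rpa3 no longer passed, and without WT array 4 at 24 h there were 3 members and without array 19 there were 2. Mcm2 had a larger difference that did not pass (0.58 ± 0.18, adjusted p = 0.105). Its untreated arrays did not overlap, with 11.60 to 11.88 in WT and 12.22 to 12.32 in Kin-.

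The 29 members with several probe sets had 41 further ones, of which 30 were lower at 24 h, none was higher and 11 did not pass. Of all 22626 probe sets, 3519 were lower and 3261 higher in that comparison. In 21 of the 29 members every further probe set gave the same call as the one that stood for the gene.

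A second list of 53 genes of replication, its regulation and nucleotide synthesis, none of them members, was measured for 39. At 24 h in WT, 29 of 39 were lower and 4 higher (16.3% and 16.3% of all genes), with a median of −1.03. At 6 h, 15 were lower and 1 higher (11.1% and 11% of all genes), and in Kin- none passed. The falls were led by genes of one-carbon and purine supply. Shmt1, which charges folate with one-carbon units, read 9.83 to 10.51 at 0 h, 8.38, 6.12 and 7.01 at 6 h, and 8.22, 5.45 and 6.58 at 24 h (−3.40 ± 0.49, adjusted p = 8.79e-06). Ppat and Gart, enzymes of purine synthesis, fell by 2.34 ± 0.27 and 2.11 ± 0.16, and no 24 h array of either overlapped the untreated ones.

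Of the 4 genes that rose, 3 break down or salvage deoxynucleotides, and the other, Pold4, is a small subunit of polymerase delta (0.72 at 24 h). Samhd1, which degrades deoxynucleoside triphosphates, read 4.52, 4.78, 3.92 and 4.45 at 0 h, 4.47, 5.24 and 4.92 at 2 h, 4.46, 6.57 and 5.24 at 6 h, and 6.24, 8.42 and 7.64 at 24 h. Its groups overlapped at 2 and 6 h and were far apart at 24 h (3.02 ± 0.40, adjusted p = 3.27e-06), while the 13 Kin- arrays read between 4.30 and 4.60. Tk2 and Dguok, the mitochondrial kinases of deoxynucleosides, rose by 1.13 ± 0.18 and 0.88 ± 0.13 at 24 h, with 7.11, 6.38 and 6.77 for Tk2 against 5.39 to 5.90 at 0 h and 9.65, 9.64 and 9.81 for Dguok against 8.66 to 9.0. These 3 genes moved opposite to Tk1 and Rrm2 in the same arrays.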

How the data were processed

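Expression was measured in 26 arrays of total RNA, with groups taken from the sample titles (WT and Kin-; 0, 2, 6 and 24 h). The values are processed scores that the authors deposited, 1 column per array and 22626 probe sets; which software made them, and on what scale, is not stated in the sources used here. Values lie between 0.375 and 267, column medians between 29.1 and 30.6, and square roots were taken and read as log2. The authors' normalization between arrays was kept. Of the probe sets, 20380 have 1 gene symbol in the platform annotation, 691 several and 1555 none; 20351 were matched to the current gene table by gene ID.

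All probe sets were fitted in limma 3.58.1 (lmFit, eBayes; R 4.3.3) with 1 mean per group over all 8 groups, and p-values were adjusted over all probe sets by Benjamini-Hochberg. The script was tested on simulated data. Members and lists were chosen with earlier results of these data known. WT array values, at some or all of the times, are given for members picked by rule. These are the members of each role with the largest and smallest 24 h change, and the 3 largest changes at 2 and 6 h. Members that rose and members that did not pass at 24 h were also picked. Others with array values were chosen after their values were seen. Of the second list, the 3 largest falls and rises are named. Alternatives were the scale, quantile normalization, a filter on dim probe sets, the array set, consecutive array numbers as a block, array weights, the mean of a gene's probe sets and leaving out each array.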

Additional observations from a re-analysis of the deposited data

Results flagged for a closer look

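In Lig1, the untreated WT array 36 read 10.96 while the other 3 read 11.23 to 11.27, a gap of 0.889 of the group's range; this was 1 of 44 groups of 4 arrays examined, and chance alone marks about 1 group in 20.

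The responses of the lines differed in 8 members at 6 h and in 46 at 24 h. For the member of each role with the largest 24 h change, the WT change minus the Kin- change at 24 h in limma's interaction term was −3.08 ± 0.67 for Ung (adjusted p = 0.00159), −2.77 ± 0.49 for Cdc6 (adjusted p = 0.000195), −2.60 ± 0.40 for Gins1 (adjusted p = 5.63e-05), −2.36 ± 0.39 for Pold2 (adjusted p = 0.000104) and −2.21 ± 0.55 for Rfc3 (adjusted p = 0.00452). It was −2.18 ± 0.26 for Uhrf1 (adjusted p = 2.58e-06), −2.12 ± 0.38 for Timeless (adjusted p = 0.000214), −1.86 ± 0.30 for Rpa2 (adjusted p = 8.76e-05) and −1.31 ± 0.14 for Fen1 (adjusted p = 9.36e-07). In each of these 9 genes all 3 WT arrays at 24 h were below all Kin- arrays.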

How the results depend on the processing

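At 24 h in WT between 40 (arrays 1 to 14 alone) and 51 (array weights) members passed in the alternatives run; Dbf4 passed as higher with array weights (0.33) and quantile normalization (0.41), and every other member that passed was lower. No call was reversed, and the Kin- counts of members stayed at 0. With log2 of the deposited value, 2 members passed at 2 h, 6 from 2 to 6 h, 0 between untreated lines and 3 in the difference of responses at 6 h, with medians of −0.09 at 6 h and −0.49 at 24 h in that unit; the power 0.75 gave medians of −1.65 and −8.41 in its own unit. With a term for the array set, 7 passed at 2 h, 18 from 2 to 6 h, and 3 and 17 in the difference of responses at 2 and 6 h. Arrays 16 to 47 alone gave 8, 21, 3 and 18 for these, and a median of −0.37 at 6 h. Arrays 1 to 14 alone, with 1 array per treated group, gave 0 at 2 h, 4 at 6 h, 0 from 2 to 6 h, 0 from 6 to 24 h, 0 between untreated lines, and 0 and 23 in the difference of responses at 6 and 24 h, with a median of −1.10 at 24 h; a lone array is there assumed to vary like the others. Consecutive array numbers as a block gave 8, 18, 2 and 17 in the order used for the array-set term. Array weights gave 11 at 2 h, 31 at 6 h, 30 from 2 to 6 h, 4 between untreated lines, 4 and 24 in the difference of responses at 2 and 6 h, and a median of −0.37 at 6 h. Quantile normalization gave 1 in the difference of responses at 2 h, and the mean of probe sets gave 2 between untreated lines. The cause of these shifts was not tested. The labels name no pairs and the groups share no array numbers, so that numbering (within-block correlation 0.305) was the only block tried for the pairing.

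Leaving out each array in turn, the counts ran from 2 to 9 at 2 h, 11 to 32 at 6 h, 47 to 49 at 24 h, 4 to 25 from 2 to 6 h (25 without WT array 4), 44 to 47 from 6 to 24 h, 0 to 3 between untreated lines, and 0 to 2, 5 to 18 and 46 to 48 in the difference of responses at 2, 6 and 24 h. The Kin- counts stayed at 0. The medians ran from −0.38 to −0.27 at 6 h and from −2.0 to −1.59 at 24 h. Of the 20 calls at 6 h, 11 held in all 26 of these fits, as did 2 of 4 at 2 h and 46 of 49 at 24 h (Dut, Lig1 and Orc5 lost theirs in some). Dim probe sets limit what can be said: the further probe sets of Tyms did not pass.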
